A study of Mus musculus with 9 samples.

Results

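Transcript levels of all 6 Col4a3-null hearts in the series were set against those of its 3 wild type hearts, so that all 9 hearts measured entered the comparison. The Col4a3-null group pooled 3 Col4a3-/- hearts with 3 Col4a3-/-OPN-/- hearts, and it was formed from the genotype labels alone. All mice were 2 months old. Each array held total RNA of 1 snap-frozen heart, extracted with a mirVana PARIS kit. The Col4a3-/- hearts still carry osteopontin, and the Col4a3-/-OPN-/- hearts lack it, so a difference shared by both genotypes is one that was seen with and without osteopontin. The labels give neither sex, nor genetic background, nor whether littermates were used, and no Opn-/- hearts with intact Col4a3 were analysed here. The title of the series asks whether the Alport mouse models heart failure with preserved ejection fraction, and whether osteopontin and mitochondria take part.

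Col4a3 encodes a chain of type IV collagen, which joins the alpha4 and alpha5 chains in a network found mainly in the basement membranes of the kidney glomerulus, the inner ear and the eye. Loss of any of these chains causes Alport syndrome, a progressive kidney disease in which blood pressure rises and the heart may be loaded secondarily. Osteopontin, encoded by Spp1, is a secreted glycoprotein that binds integrins and CD44 and is made by macrophages and stressed muscle cells.

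The deposited values are log2 signals from an Affymetrix mouse gene array, made by RMA, which corrects background, normalizes across arrays and summarizes each probe set. A difference of 1 on this scale is a doubling of signal. How the RNA was labelled is uncertain, since the kit named in the labels is one for small RNA and the array is one for whole transcripts. Of 33793 probe sets, 13650 that had 1 gene symbol and a mean above 5.21, the median of all probe sets, were tested; they stand for 13085 genes. "Called" means a Benjamini-Hochberg adjusted p under 0.05 in limma, a linear model with moderated variances. "Without overlap" means that all 6 Col4a3-null hearts lay above, or all below, all 3 wild type hearts. Hearts are taken as separate mice, and p-values measure the spread between these 9 hearts.

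Neither deleted gene allowed a check of the genotypes. Col4a3 had 1 probe set, below the level tested, at 5.07, 5.31 and 5.52 in wild type, 5.27, 4.96 and 5.19 in Col4a3-/- and 5.17, 4.87 and 5.26 in Col4a3-/-OPN-/- hearts, and these ranges overlapped. No single-symbol probe set was matched to Spp1. Heart muscle markers were high in every heart: the mean over 18 cardiomyocyte genes was 11.75 to 11.82 in wild type and 11.55 to 11.85 in Col4a3-null hearts.

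The Col4a3-null hearts were not uniform in 2 other respects. Xist, the RNA of the inactive X chromosome of female cells, was at 7.59 to 8.56 in 3 hearts (Col4a3-/- 1 and 3, Col4a3-/-OPN-/- 2) and at 4.52 to 4.77 in the other 6, among them all wild type hearts. Eif2s3y, a Y-linked gene, ran the other way at 8.39, 8.24 and 8.26 in wild type, 4.6, 8.0 and 4.67 in Col4a3-/- and 8.3, 4.75 and 8.09 in Col4a3-/-OPN-/- hearts. Transcripts of airway lining cells were high in the other 3 Col4a3-null hearts. Scgb1a1, the club cell secretory protein, was at 6.1, 5.09 and 5.36 in wild type, 4.54, 12.21 and 4.61 in Col4a3-/- and 9.81, 4.93 and 9.52 in Col4a3-/-OPN-/- hearts, and Bpifa1 at 4.46, 4.44 and 4.39 in wild type, 4.48, 7.39 and 4.4 in Col4a3-/- and 7.44, 4.51 and 8.05 in Col4a3-/-OPN-/- hearts. Of the 11 airway and lung markers, 5 passed the filter, and the mean of all 11 was 5.09 to 5.29 in wild type, 5.10, 7.12 and 5.11 in Col4a3-/- and 5.89, 5.05 and 5.84 in Col4a3-/-OPN-/- hearts. Every Col4a3-null heart thus differed from the wild type hearts in either Xist or airway signal, and among Col4a3-null hearts these 2 features cannot be told apart. Their part in the results below was not tested as a cause. The differences in each kind of Col4a3-null heart are given beside the results. Fits with a Y-linked covariate, or without either kind of heart, are given at the end.

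No gene was called when the 6 Col4a3-null hearts were compared with the 3 wild type hearts. limma called 0 of 13650 probe sets (0% called), and the smallest adjusted p was 0.133, for Chek2. Without adjustment, 356 probe sets had a p under 0.05 (2.61%), 136 of them higher (0.996%) and 220 lower (1.61%) in Col4a3-null hearts. The share of 2.61% is below what a threshold of 0.05 passes on average where no probe set differs. The pooled fit has 1 mean for both genotypes, so a difference between them counts as spread and can raise p. Between the 2 genotypes, 13.6% of probe sets had an unadjusted limma p under 0.05. The low share therefore cannot show that no probe set differs from wild type. A fit with a mean for each of the 3 genotypes also called 0, with 506 at an unadjusted p under 0.05 (3.71%). In the same fit Col4a3-/- minus wild type called 0 (0%; 1140 at an unadjusted p under 0.05, 8.35%), and Col4a3-/-OPN-/- minus wild type called 0 (0%; 503, 3.68%). The median standard error of a pooled difference was 0.14, and the median SD was 0.12 among wild type, 0.21 among Col4a3-/- and 0.14 among Col4a3-/-OPN-/- hearts.

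Separation without overlap was met by 241 probe sets of 234 genes (1.77%), 121 higher (0.886%) and 120 lower (0.879%). Their differences were small, with a median size of 0.26 and a range of 0.08 to 1.31, and 34 of them exceeded 0.5. The difference was larger in Col4a3-/- than in Col4a3-/-OPN-/- hearts for 167 of the 241, and larger in Col4a3-/-OPN-/- hearts for 74. For 16 of them, a group mean lay below 5.21. Since fewer hearts are easier to separate, this count was 352 to 805 when any 1 heart was left out.

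Few probe sets passed an unadjusted test on the same side of wild type in each genotype taken alone. At an unadjusted p under 0.05 in each genotype, 63 probe sets had the same direction (0.462%), 16 higher (0.117%) and 47 lower (0.344%), and 24 had opposite directions (0.176%). None passed an adjusted p in both (0%). Of the 63, 47 also lay without overlap. Both comparisons use the same 3 wild type hearts, so their agreement is not independent. The count of 63 was 40 without wild type heart 2 and 119 without Col4a3-/- heart 1.

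**Figure D1:**
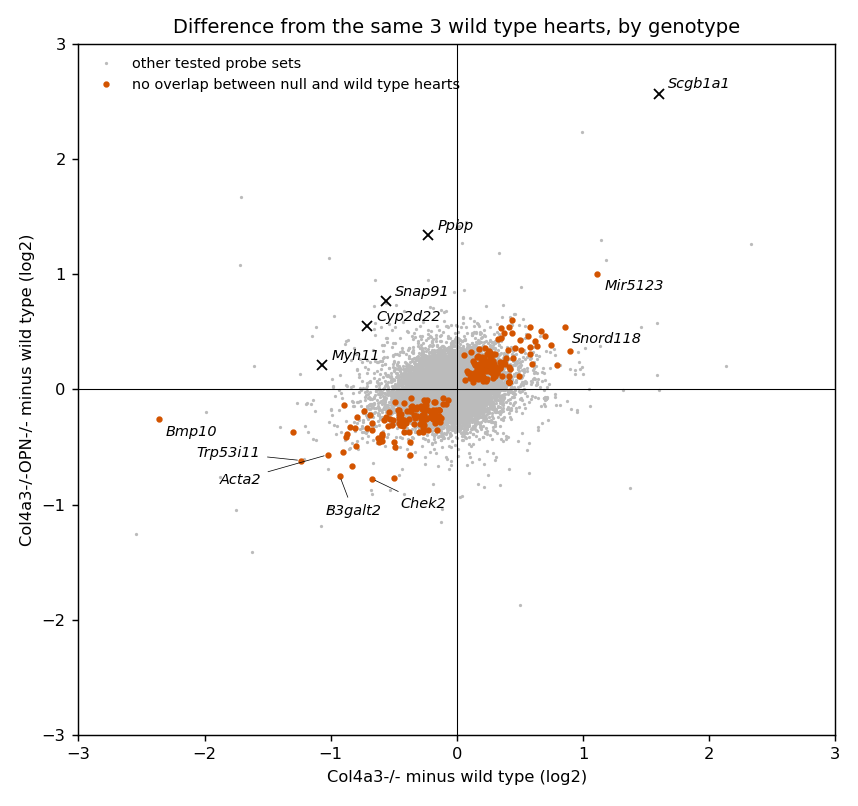
Each point is 1 of the 13650 tested probe sets, with the log2 difference Col4a3-/- minus wild type on the x axis and Col4a3-/-OPN-/- minus wild type on the y axis. The 241 probe sets without overlap (orange) have the same sign on both axes. Crosses mark Myh11, Cyp2d22, Snap91, Ppbp and Scgb1a1, whose Col4a3-null hearts did not all lie on the same side of wild type. For Myh11, Cyp2d22 and Snap91 the genotypes lay on opposite sides of wild type. Bmp10 lies far out on the x axis (-2.36) but near 0 on the y axis (-0.26).

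Sequences are shown, as a description, for 2 microRNA genes and for Acta2, the smooth muscle marker with the lowest pooled difference. They are the mature forms of the 2 microRNA genes, which lay above wild type without overlap, and the Acta2 promoter. They come from RefSeq on build GRCm38.p6, and capitals mark bases 2 to 8, the seed with which a microRNA pairs to its targets. All 3 lie on the minus strand, miR-5123 at chr4:40850057-40850080, miR-505-3p at chrX:60394416-60394437 and miR-505-5p at chrX:60394451-60394473. The probe sets read the microRNA gene and cannot tell its arms apart, and no seed is shared among them.
mmu-miR-5123: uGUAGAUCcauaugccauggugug
mmu-miR-505-3p: cGUCAACAcuugcugguuuucu
mmu-miR-505-5p: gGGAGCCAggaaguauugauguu

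Smooth muscle genes are controlled through CArG elements, which bind serum response factor. The 250 bases before the Acta2 start, at chr19:34255374-34255623 on the minus strand, are given with 2 CArG-like elements (at most 1 C or G among the 6 inner bases) in capitals, whose first bases lie at -84 and -34 from the start.
Acta2 promoter: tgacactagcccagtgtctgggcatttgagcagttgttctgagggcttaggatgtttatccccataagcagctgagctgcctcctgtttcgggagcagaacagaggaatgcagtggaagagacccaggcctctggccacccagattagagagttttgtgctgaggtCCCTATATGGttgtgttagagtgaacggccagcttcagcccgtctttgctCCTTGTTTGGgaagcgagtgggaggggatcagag
The letters CCCTATATGG, searched on both strands, were in 9 of 32851 RefSeq promoter windows of 300 bases (0.0274%), and CCTTGTTTGG in 26 (0.0791%). A CArG box (CC, then 6 bases of A or T, then GG) was in 535 windows (1.63%), and the CArG-like form in 3280 (9.98%). Among the 9 smooth muscle genes with a window, Myl9 held the first and Acta2 and Myl9 the second. The elements are a description of the sequence and were not tested as a cause.

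The gene with the smallest p was Chek2, which encodes the checkpoint kinase CHK2 of the DNA damage response. Its signal was 5.99, 6.17 and 6.18 in the wild type hearts, 5.47, 5.45 and 5.41 in the Col4a3-/- hearts and 5.43, 5.45 and 5.14 in the Col4a3-/-OPN-/- hearts. All Col4a3-null hearts lay below all wild type hearts, and the Col4a3-null levels were near the median of all probe sets. The pooled difference was -0.72 (SE 0.10, 1.65-fold lower; limma adjusted p = 0.133), with -0.67 in Col4a3-/- and -0.78 in Col4a3-/-OPN-/- hearts. With arrays weighted by quality the adjusted p was 0.0423, and this was the only gene called in that fit. Of 22 alternative fits that held Chek2, only that 1 called it, while its difference stayed at -0.79 to -0.67. Without wild type heart 2, or without wild type heart 3, the smallest limma adjusted p of any probe set was 0.9999. For Chek2, Col4a3-/-OPN-/- minus Col4a3-/- was -0.10 (SE 0.11, adjusted p = 0.71).

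The next lowest genes were an enzyme of signalling and one of glycan synthesis. Dusp23, a small dual-specificity phosphatase, was at 6.55, 6.94 and 6.76 in wild type, 6.12, 5.96 and 5.68 in Col4a3-/- and 6.25, 6.14 and 5.85 in Col4a3-/-OPN-/- hearts. B3galt2, a galactosyltransferase, was at 6.75, 6.56 and 6.11 in wild type, 5.89, 5.66 and 5.1 in Col4a3-/- and 5.88, 5.65 and 5.65 in Col4a3-/-OPN-/- hearts. Both lay without overlap, yet neither passed the adjusted test: Dusp23 differed by -0.75 (SE 0.14, limma adjusted p = 0.999) and B3galt2 by -0.84 (SE 0.18, adjusted p = 0.999). The lowest B3galt2 level was in Col4a3-/- heart 3, a heart whose mean correlation with the others (0.943) was the lowest of the 9.

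Trp53i11, named for its induction by p53, had one of the largest differences found in both genotypes. Its signal was 9.28, 9.41 and 8.98 in the wild type hearts, 8.32, 8.07 and 7.58 in the Col4a3-/- hearts and 8.86, 8.82 and 8.14 in the Col4a3-/-OPN-/- hearts. The groups did not overlap, and the Col4a3-/- hearts were lowest. The difference was -1.23 in Col4a3-/- and -0.62 in Col4a3-/-OPN-/- hearts, and -0.93 pooled (SE 0.25, limma adjusted p = 0.999).

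Npnt, Mfap4 and Comp lay below wild type in all 6 Col4a3-null hearts. Npnt encodes nephronectin, a basement membrane protein that is a ligand of the integrin containing the Itga8 chain, and it was at 6.26, 6.44 and 6.15 in wild type, 5.44, 5.76 and 5.88 in Col4a3-/- and 5.9, 5.85 and 5.89 in Col4a3-/-OPN-/- hearts. Its pooled difference was -0.50 (SE 0.12, -0.59 and -0.40 by genotype; limma adjusted p = 0.999). Itga8 itself was at 6.93, 6.77 and 6.96 in wild type, 6.03, 6.13 and 5.53 in Col4a3-/- and 6.68, 6.84 and 6.47 in Col4a3-/-OPN-/- hearts; it lay low in Col4a3-/- hearts (-0.99) and overlapped with wild type in Col4a3-/-OPN-/- hearts (-0.22). Mfap4, a glycoprotein of elastic microfibrils, was at 7.77, 7.84 and 7.97 in wild type, 7.38, 7.09 and 6.4 in Col4a3-/- and 7.34, 7.33 and 7.27 in Col4a3-/-OPN-/- hearts, a difference of -0.72 (SE 0.20, adjusted p = 0.999). Comp, cartilage oligomeric matrix protein, was at 6.83, 7.22 and 6.78 in wild type, 6.36, 6.26 and 5.68 in Col4a3-/- and 6.68, 6.63 and 6.55 in Col4a3-/-OPN-/- hearts, with -0.85 in Col4a3-/- and -0.33 in Col4a3-/-OPN-/- hearts. For Mfap4, Comp and B3galt2 the lowest heart was again Col4a3-/- heart 3.

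The rest of the 10 lowest by p were of mixed function. Ecrg4, which encodes the secreted peptide precursor augurin, differed by -0.52 (SE 0.12). P2rx6, a subunit of ATP-gated channels, differed by -0.48 (SE 0.12), and Ccdc3, a secreted protein, by -0.52 (SE 0.13). Slc17a5, the lysosomal sialic acid transporter sialin, differed by -0.50 (SE 0.13), nearly the same in both genotypes (-0.49 and -0.50). The odorant receptor genes Olfr1502 (-0.63, SE 0.15) and Olfr1269 (-0.47, SE 0.12) were dim, at most 6.06 and 6.35 in any heart. All 6 had an adjusted p of 0.999.

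**Figure D2:**
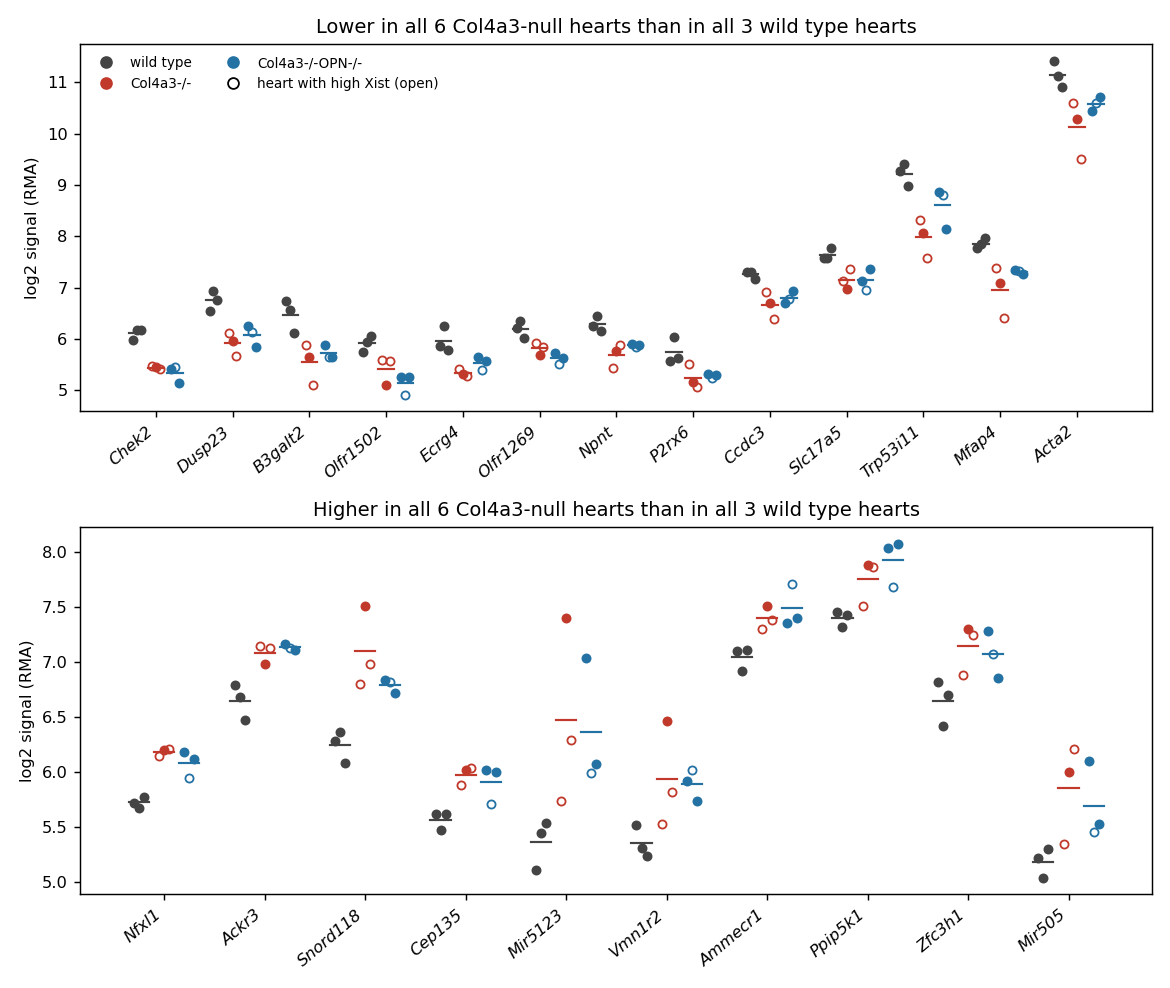
Log2 signal of the 13 leading lower genes (top) and 10 leading higher genes (bottom), 1 point per heart and a line at each genotype's mean; open points mark hearts with high Xist. Genes were picked for lying without overlap, so the gap between wild type and both other genotypes is how they were chosen; Chek2 is at 5.99 to 6.18 in wild type and 5.14 to 5.47 in Col4a3-null hearts.

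Among genes that stood higher, the chemokine receptor Ackr3 was even across the Col4a3-null hearts. Ackr3 takes up the chemokine CXCL12 without G protein signalling, and its signal was 6.79, 6.68 and 6.48 in the wild type hearts, 7.15, 6.98 and 7.13 in the Col4a3-/- hearts and 7.17, 7.12 and 7.11 in the Col4a3-/-OPN-/- hearts. The Col4a3-null hearts spanned 6.98 to 7.17, with no overlap and little difference between genotypes (0.44 and 0.49). Pooled, the difference was 0.46 (SE 0.11, 1.38-fold; limma adjusted p = 0.999). Nfxl1, a zinc finger gene, was at 5.72, 5.67 and 5.78 in wild type, 6.15, 6.2 and 6.21 in Col4a3-/- and 6.19, 5.94 and 6.12 in Col4a3-/-OPN-/- hearts (0.41, SE 0.10). Cep135, a centriole protein, was at 5.62, 5.47 and 5.62 in wild type, 5.88, 6.02 and 6.03 in Col4a3-/- and 6.02, 5.71 and 6.0 in Col4a3-/-OPN-/- hearts (0.37, SE 0.10).

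The probe sets that lay above wild type without overlap included 3 small RNA genes. Snord118, the U8 small nucleolar RNA needed for ribosomal RNA maturation, was at 6.28, 6.36 and 6.09 in wild type, 6.8, 7.51 and 6.99 in Col4a3-/- and 6.84, 6.81 and 6.72 in Col4a3-/-OPN-/- hearts. Mir5123 was at 5.11, 5.45 and 5.54 in wild type, 5.74, 7.4 and 6.29 in Col4a3-/- and 7.03, 5.99 and 6.07 in Col4a3-/-OPN-/- hearts, and Mir505, on the X chromosome, at 5.22, 5.04 and 5.31 in wild type, 5.35, 6.01 and 6.21 in Col4a3-/- and 6.1, 5.45 and 5.53 in Col4a3-/-OPN-/- hearts. None overlapped with wild type, but Col4a3-/- heart 2 was highest for Snord118 and Mir5123, and the lowest Mir505 value of a Col4a3-null heart (5.35) was close to the highest wild type value (5.31). Differences were 0.70 (SE 0.17, adjusted p = 0.999), 1.06 (SE 0.32, adjusted p = 0.999) and 0.59 (SE 0.19, adjusted p = 0.999). For Mir5123 the difference was 1.47 in the 3 Col4a3-null hearts with high airway signal and 0.64 in the other 3. Across classes there was no common shift. Of 107 microRNA genes tested, 2 lay without overlap (1.87%), near the 1.77% of all tested probe sets, and the median difference was 0.01. Of 73 small nucleolar RNA genes 1 lay without overlap, also with a median of 0.01. The medians by genotype had opposite signs, 0.10 in Col4a3-/- and -0.07 in Col4a3-/-OPN-/- hearts for microRNA genes and 0.15 and -0.15 for small nucleolar RNA genes.

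The other leading higher genes differed by 0.40 to 0.56. They were Ammecr1 on the X chromosome (0.40, SE 0.12), the inositol pyrophosphate kinase gene Ppip5k1 (0.44, SE 0.14), Zfc3h1 of nuclear RNA decay (0.46, SE 0.15) and the vomeronasal receptor gene Vmn1r2 (0.56, SE 0.17). Vmn1r2 reached 6.46 in Col4a3-/- heart 2 and 5.53 in heart 1, against a highest wild type value of 5.52. Adjusted p was 0.999 for each of the 4.

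**Figure D3:**
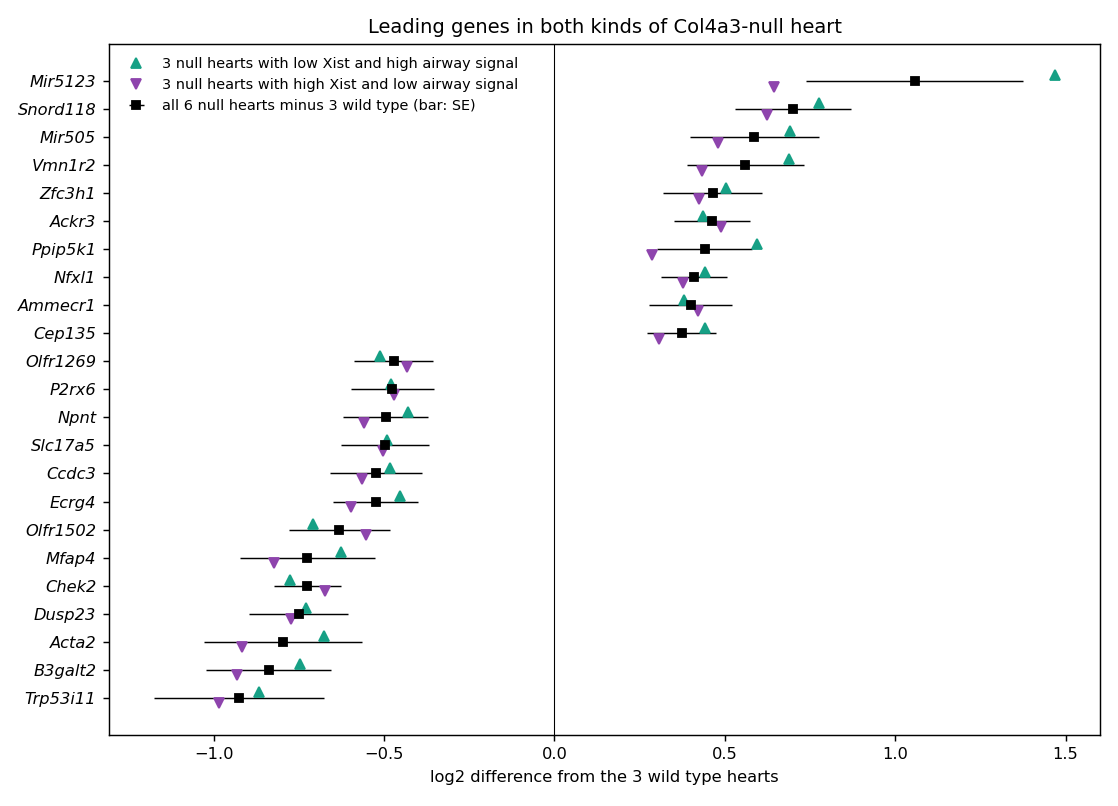
Log2 difference from the 3 wild type hearts for the 23 leading genes, for all 6 Col4a3-null hearts (square, bar = SE of the fit), the 3 with low Xist and high airway signal (up triangle) and the 3 with high Xist and low airway signal (down triangle). Both kinds lie on the same side by the way the genes were chosen; for Chek2 they are at -0.78 and -0.67, and for Mir5123, the widest apart, at 1.47 and 0.64.

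Smooth muscle markers stood lower as a group, mostly in Col4a3-/- hearts. All 13 tested markers had a negative pooled difference, with a median of -0.42, beside 52.6% negative and a median of -0.01 over all tested probe sets. Of the 13, 11 were negative in both genotypes, and the median was -0.63 in Col4a3-/- against -0.16 in Col4a3-/-OPN-/- hearts. None was called, 4 had an unadjusted p under 0.05, and 4 lay below wild type without overlap (Acta2, Tagln, Lmod1 and Mylk) beside 0.879% of all probe sets. The median was -0.27 in the 3 Col4a3-null hearts with low Xist and -0.60 in those with high Xist. In these whole hearts, fewer smooth muscle cells and less RNA per cell cannot be told apart.

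Acta2 encodes smooth muscle actin, and its signal was 11.42, 11.13 and 10.91 in the wild type hearts, 10.6, 10.28 and 9.5 in the Col4a3-/- hearts and 10.44, 10.61 and 10.71 in the Col4a3-/-OPN-/- hearts. The highest Col4a3-null heart lay just below the lowest wild type heart, and Col4a3-/- heart 3 was lowest. The difference was -1.02 in Col4a3-/- and -0.57 in Col4a3-/-OPN-/- hearts, -0.80 pooled (SE 0.23, 1.74-fold lower; limma adjusted p = 0.999). Tagln, the actin-binding protein transgelin, was at 7.54, 7.52 and 7.46 in wild type, 6.87, 6.67 and 6.31 in Col4a3-/- and 7.36, 7.4 and 7.35 in Col4a3-/-OPN-/- hearts. It lay without overlap, but the Col4a3-/-OPN-/- hearts were close to wild type (-0.14) and the Col4a3-/- hearts far below (-0.89). Cnn1, calponin, differed by -1.14 in Col4a3-/- and -0.10 in Col4a3-/-OPN-/- hearts, and Myl9, the regulatory light chain, by -0.72 and -0.38. At the other end, Synpo2 (-0.04) and the cofactor gene Myocd (-0.02), which switches on smooth muscle genes, were near 0.

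The smooth muscle myosin gene Myh11 did not share a direction. It was at 7.83, 8.01 and 7.99 in the wild type hearts, 6.9, 7.01 and 6.72 in the Col4a3-/- hearts and 8.15, 8.14 and 8.17 in the Col4a3-/-OPN-/- hearts. The Col4a3-/- hearts lay below and the Col4a3-/-OPN-/- hearts above wild type, without overlap. Col4a3-/-OPN-/- minus Col4a3-/- was 1.28 (SE 0.13, limma adjusted p = 0.0104), 1 of 6 probe sets called in that comparison (0.0440%). The call was kept in 19 of 23 alternatives and lost in the other 4, among them the one without the 3 hearts with high airway signal (adjusted p = 0.409). The 23 include the fit with 3 genotype means, which for this comparison is the main fit and could not lose the call. Of the 13 markers, 6 had an unadjusted p under 0.05 for Col4a3-/-OPN-/- minus Col4a3-/-, beside 13.6% of all tested probe sets.

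**Figure D4:**
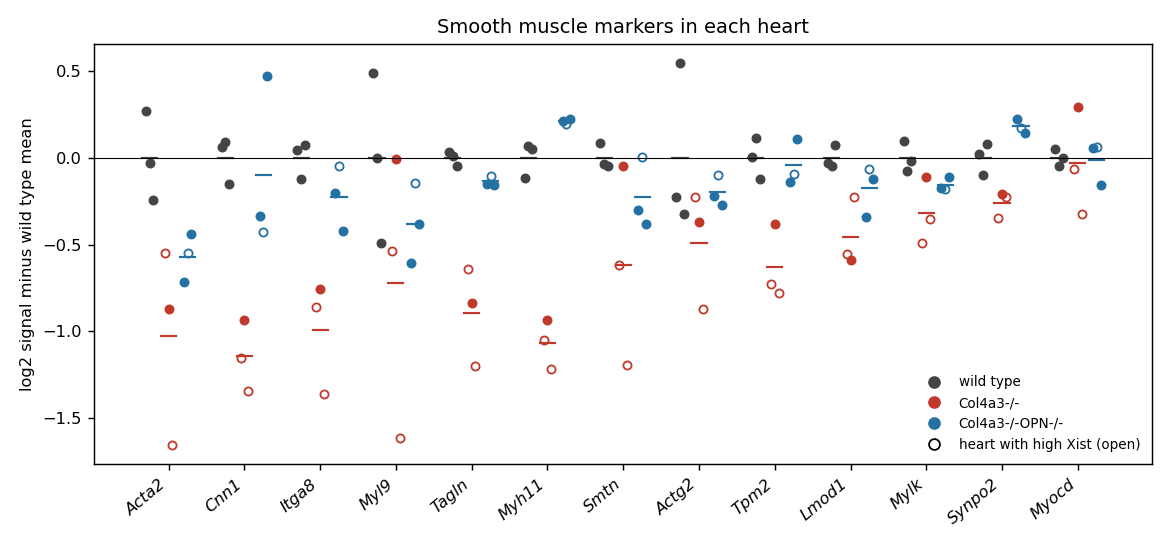
Log2 signal of the 13 smooth muscle markers in each heart minus the wild type mean, with a line at each genotype's mean; open points mark hearts with high Xist. Acta2 is the marker with the lowest pooled difference (-0.80), and for Myh11 the genotypes lie on opposite sides of 0 (-1.07 and 0.21).

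Pericyte markers, which mark the mural cells of small vessels, had a median of -0.08 over 8 genes, with -0.34 in Col4a3-/- and 0.15 in Col4a3-/-OPN-/- hearts. Endothelial markers were near 0 (14 tested, 7 positive and 7 negative, median -0.01). Fibroblast markers had a pooled median of -0.02 over 11 tested, with -0.22 in Col4a3-/- and 0.11 in Col4a3-/-OPN-/- hearts. Among 18 cardiomyocyte markers, 9 were positive and 9 negative, none lay without overlap, and pooled differences ran from -0.15 for Myl2 to 0.10 for Myoz2.

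Atrial markers had the lowest median of all lists apart from the sex-linked genes. Of 14 tested, 11 were negative and the median was -0.46, but it was -0.73 in Col4a3-/- and -0.14 in Col4a3-/-OPN-/- hearts. Bmp10, a growth factor made by atrial muscle, was at 9.75, 9.78 and 9.86 in wild type, 5.72, 9.17 and 7.4 in Col4a3-/- and 9.38, 9.63 and 9.59 in Col4a3-/-OPN-/- hearts. It lay without overlap (-1.31, SE 0.74, limma adjusted p = 0.999), and the low values were those of Col4a3-/- hearts 1 and 3. Mybphl, an atrial myosin-binding protein, was at 8.62, 9.29 and 8.82 in wild type, 6.63, 8.47 and 5.66 in Col4a3-/- and 8.7, 8.6 and 8.84 in Col4a3-/-OPN-/- hearts and overlapped with wild type in Col4a3-/-OPN-/- hearts. The median was -0.11 in the 3 Col4a3-null hearts with low Xist and -0.66 in those with high Xist. The mean signal of 9 brown fat markers stood low in the same 2 Col4a3-/- hearts: it was 7.58, 7.87 and 7.66 in wild type, 6.95, 9.17 and 6.94 in Col4a3-/- and 7.48, 7.29 and 7.79 in Col4a3-/-OPN-/- hearts, beside atrial means of 8.36, 8.56 and 8.42, 7.29, 8.25 and 7.34, and 8.29, 8.37 and 8.36. The part of brown fat in the atrial values was not tested. The amount of atrium in each sample is not given in the labels.

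Basement membrane genes, among them the partner chains of Col4a3, were close to wild type in the pooled hearts. Npnt, described above, was not in this list. Of 19 tested, 10 were positive and 9 negative, none was called or lay without overlap, and the median was 0.02. Col4a5, a partner chain of Col4a3, had the highest difference (0.20, SE 0.16), and Col4a4, the other, was at 0.03. The ubiquitous chains Col4a1 and Col4a2 differed by -0.03 and -0.02. Col15a1, a collagen of muscle and vessel basement membranes, had the lowest (-0.38, SE 0.29). The median was -0.11 in Col4a3-/- hearts, where 15 of 19 were negative, and 0.08 in Col4a3-/-OPN-/- hearts, where 17 of 19 were positive.

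Receptors of osteopontin and other integrins had a pooled median of 0.00 over 13 genes, 7 positive and 6 negative. In Col4a3-/- hearts 8 of the 13 were negative (median -0.06), and in Col4a3-/-OPN-/- hearts 12 were positive (median 0.08). Cd44 differed by 0.11, Itgav by 0.04 and Itgb1 by 0.08. The highest were Itgb3 (0.36) and Itga4 (0.25), and the lowest Itga8 (-0.61) and Itga1 (-0.32). None was called or lay without overlap.

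Matrix and hypertrophy genes did not share a direction. Of 33 fibrosis and matrix genes, 12 were positive and 21 negative (median -0.05), and only Comp and Mfap4, both lower, lay without overlap, beside 0.879% of all probe sets lower. The matrix median was -0.22 in Col4a3-/- hearts, with 24 of 33 negative, and 0.01 in Col4a3-/-OPN-/- hearts, with 16 negative. Lox, which crosslinks collagen, had the highest difference (0.58, SE 0.56) but ranged from 5.82 to 9.04 among Col4a3-null hearts. Timp1, an inhibitor of matrix proteases, came next (0.54, SE 0.34). Of 17 hypertrophy and stress genes, 6 were positive and 11 negative (median -0.07), with a median of -0.16 in Col4a3-/- and 0.04 in Col4a3-/-OPN-/- hearts. The natriuretic peptide gene Nppb was lowest (-0.54, SE 0.33), and Myh7, the slow myosin heavy chain, was highest (0.55, SE 0.49), at 8.66, 6.99 and 6.94 in wild type, 7.0, 7.98 and 8.71 in Col4a3-/- and 7.96, 7.51 and 9.32 in Col4a3-/-OPN-/- hearts. Neither separated the groups.

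Macrophage and inflammation genes were more often positive than negative. Of 18 macrophage markers, 14 were positive, all of them in both genotypes, and the median was 0.20 (0.22 in Col4a3-/- and 0.10 in Col4a3-/-OPN-/- hearts). Itgam, an integrin chain of myeloid cells, was at 6.41, 5.92 and 5.95 in wild type, 6.37, 7.15 and 7.64 in Col4a3-/- and 6.78, 6.21 and 6.26 in Col4a3-/-OPN-/- hearts (0.64, SE 0.29), and Gpnmb, of lipid-handling macrophages, at 5.6, 5.69 and 5.59 in wild type, 5.69, 5.89 and 7.52 in Col4a3-/- and 6.01, 5.78 and 6.07 in Col4a3-/-OPN-/- hearts. Both overlapped with wild type, and Gpnmb was high only in Col4a3-/- heart 3. The macrophage median was 0.26 in the 3 Col4a3-null hearts with high airway signal and 0.04 in the other 3. Of 21 inflammation and acute response genes, 19 were positive (median 0.26), but the median was 0.42 in Col4a3-/- and 0.02 in Col4a3-/-OPN-/- hearts. Serpina3n and Saa3, acute response genes, led with 1.08 (SE 0.56) and 0.86 (SE 0.77). Saa3 was at 9.10 in Col4a3-/- heart 3 and at 4.69 to 5.83 in the other Col4a3-null hearts; Alb, a liver gene, was also high there (10.54).

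Immediate early genes, which respond within minutes to stimuli and handling, were positive for 15 of 17, with 13 positive in both genotypes and a median of 0.20. Nr4a1, an early nuclear receptor, was at 8.2, 8.46 and 7.06 in wild type, 8.81, 9.54 and 9.74 in Col4a3-/- and 8.27, 8.82 and 8.26 in Col4a3-/-OPN-/- hearts (1.0, SE 0.37, limma adjusted p = 0.999). Egr1 differed by 0.76 (SE 0.55). Both overlapped with wild type. All 6 platelet genes tested had a positive pooled difference (median 0.27), but only 3 were positive in both genotypes. Their median was 0.14 in Col4a3-/- and 0.28 in Col4a3-/-OPN-/- hearts over all 6. The 6 include Ppbp, a platelet chemokine, at 5.14, 5.52 and 5.22 in wild type, 4.89, 4.95 and 5.37 in Col4a3-/- and 7.01, 6.46 and 6.44 in Col4a3-/-OPN-/- hearts. Ppbp was high only in Col4a3-/-OPN-/- hearts, and Col4a3-/-OPN-/- minus Col4a3-/- was 1.56 (SE 0.18, limma adjusted p = 0.0258). Interferon response genes had 5 positive and 12 negative of 17 (median -0.13), with all 17 negative in Col4a3-/- and 10 positive in Col4a3-/-OPN-/- hearts.

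Mitochondrial genes, the subject of the title, differed little from wild type in the pooled hearts. Of 32 complex I genes, 10 were positive and 22 negative (median -0.04), and only Ndufv1, which lay above wild type, was without overlap (0.13, SE 0.08), beside 0.886% of all probe sets higher. Complexes II to IV had a median of -0.02 over 22 genes, ATP synthase -0.01 over 14, the tricarboxylic acid cycle -0.04 over 23 and fatty acid oxidation -0.03 over 23. Of 20 genes of mitochondrial biogenesis and dynamics the median was -0.03. By genotype, 19 of 23 tricarboxylic acid cycle genes were negative in Col4a3-/- hearts and 13 positive in Col4a3-/-OPN-/- hearts. For fatty acid oxidation these were 16 negative and 17 positive. Complexes II to IV ran the other way, with 13 of 22 positive in Col4a3-/- and 16 negative in Col4a3-/-OPN-/- hearts. The tricarboxylic acid cycle mean was 10.44 to 10.60 in wild type, 10.32 to 10.40 in Col4a3-/- and 10.52 to 10.63 in Col4a3-/-OPN-/- hearts. Nrf1, a transcription factor for nuclear genes of the respiratory chain, lay without overlap at 6.31, 6.29 and 6.26 in wild type, 6.47, 6.49 and 6.76 in Col4a3-/- and 6.52, 6.49 and 6.43 in Col4a3-/-OPN-/- hearts (0.23, SE 0.11, limma adjusted p = 0.999). None of these genes was called, beside 0 of 13650 over all probe sets.

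**Figure D5:**
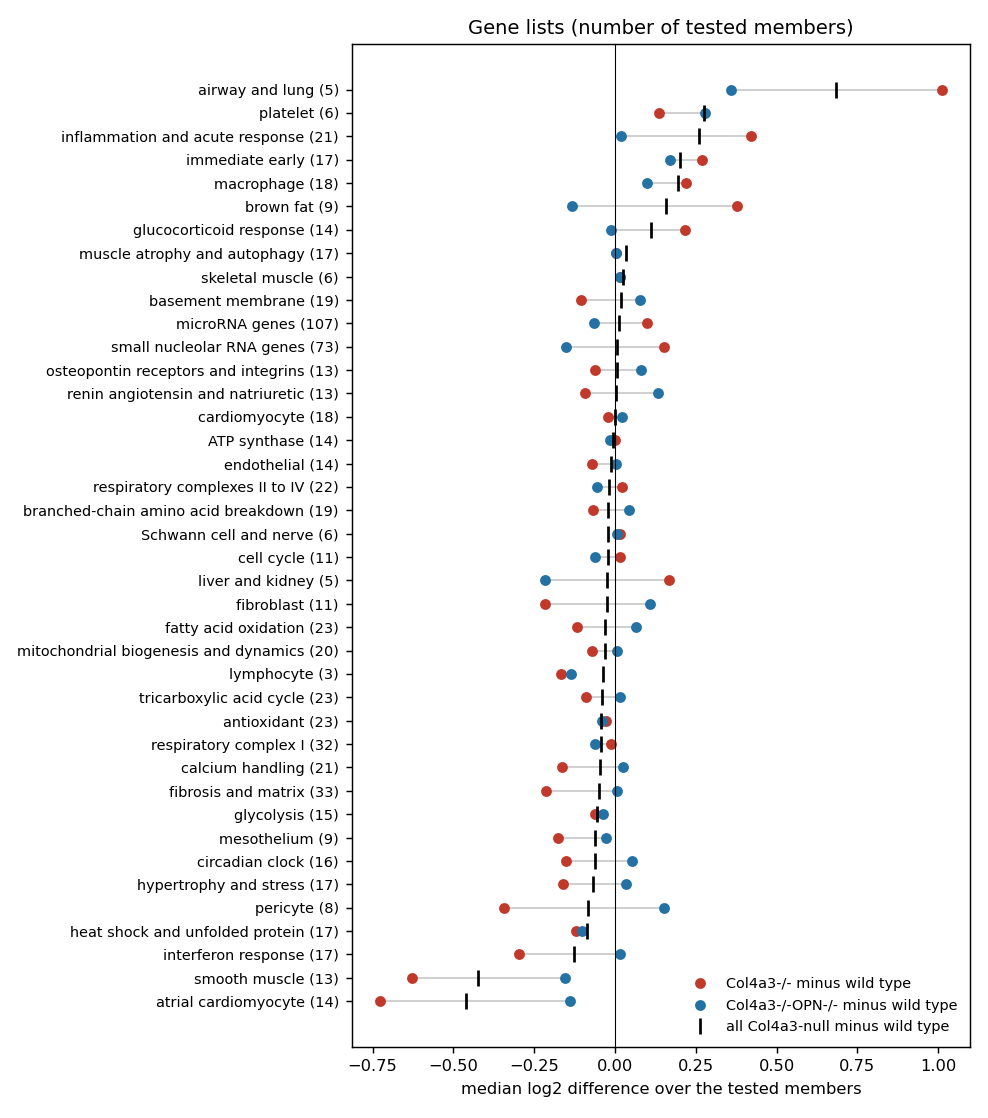
Median log2 difference from wild type over the tested members of each list, for Col4a3-/- (red), Col4a3-/-OPN-/- (blue) and all Col4a3-null hearts (black line); numbers of members are in brackets, and the sex-linked list and lists with under 3 tested members are not drawn. Lists of mitochondrial genes have medians from -0.12 to 0.06 in each genotype, smooth muscle (-0.42) and atrial (-0.46) lists lie lowest, and for these 2 the red point is further from 0 than the blue.

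Some separated probe sets need care. Rps12, a ribosomal protein gene, accounted for 7 of the 121 higher probe sets, most of them nearly identical in value, and Fabp5, a fatty acid binding protein, for 2 of the 120 lower. Sry, on the Y chromosome, lay without overlap at 5.48 to 5.69 in Col4a3-null hearts, including those with high Xist and low Eif2s3y, so its dim signal does not follow the other sex-linked genes. Krt8, an epithelial keratin listed with mesothelium, was higher without overlap (0.31), with 6.65 in Col4a3-/- heart 2, a heart with high airway signal. Slc4a1, the red cell anion exchanger (-0.29), and Cd3e, a T cell receptor chain (-0.20), lay lower without overlap, both at dim signals.

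Other genes stood on opposite sides of wild type in the 2 genotypes. In 59 probe sets the Col4a3-/- hearts lay below and the Col4a3-/-OPN-/- hearts above wild type, both without overlap, and in 25 the reverse held (84 in all, 0.615%). Besides Myh11, the rule named Snap91 (-0.56 and 0.77; Col4a3-/-OPN-/- minus Col4a3-/- adjusted p = 0.0317), Cyp2d22 (-0.71 and 0.55; 0.0305), Pm20d1 (-0.45 and 0.45; 0.048) and 2610044O15Rik8 (-0.65 and 0.58; 0.0888). Of the 3 calls, Snap91 was kept in 12 of 22 alternatives, Cyp2d22 in 13 of 23 and Pm20d1 in 6 of 23. These tallies also count the fit with 3 genotype means, the main fit of this comparison. Without the 3 hearts with high Xist, adjusted p was 0.0893 for Snap91, 0.169 for Cyp2d22 and 0.165 for Pm20d1. Pooled differences of these 4 ran from -0.08 to 0.10, since the genotypes cancel.

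Genes next to the deleted genes were also counted. Of 30 tested probe sets among the 60 genes on each side of Col4a3, 0 lay without overlap, beside 1.77% of all tested probe sets. An unadjusted p under 0.05 was met by 1 (Wdfy1), beside 2.61% of all. Around Spp1 these counts were 0 and 1 (Arhgap24) of 27. At such shares, so few probe sets cannot tell the neighbours from the rest.

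Within each kind of Col4a3-null heart the calls were of the genes that define it. Against the 3 wild type hearts, the 3 Col4a3-null hearts with low Xist had 1 called probe set (0.00733%), Bpifa1 (3.19, limma adjusted p = 1.95e-04), and 1780 without overlap (13%). The 3 with low airway signal had 4 called (0.0293%), all sex-linked (Xist, Kdm5d, Eif2s3y and Uty), and 1174 without overlap (8.6%).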

How the data were processed

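RNA of 9 hearts was read on 9 arrays. The authors deposited log2 values made by RMA, per the submitters' processing notes; the version is not given in the sources used here. Array medians were 5.18 to 5.24 and Pearson's r between arrays 0.936 to 0.986, and no arrays were identical. The platform annotation gave 23521 probe sets 1 symbol, 1814 several, and 8458 were not listed; 13586 of the tested ones were matched by identifier to the RefSeq table (GRCm38.p6), used for current names and RNA class. In lists, a gene with several probe sets (424 genes) was taken at its brightest probe set.

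The deposited values were fitted in limma 3.58.1 (R 4.3.3; lmFit, eBayes with an intensity trend) with 2 groups, and in a second fit with 3 genotype means; p-values are two-sided and come from limma. The number of arrays limits the precision. Members, the 40 gene lists and named genes were chosen with earlier results of these data known, and the 2 small RNA classes were added after seeing the data. Named genes were the 10 higher and 10 lower without overlap by smallest p, the 10 with the largest of the smaller genotype difference among those without overlap, the 2 highest and 2 lowest members of lists, up to 5 genes on opposite sides of wild type, and the sex-linked genes and targets; others are named because they lay without overlap, lead a cell type list or mark a heart, and were chosen after their values were seen. On simulated data, 200 of 13650 probe sets were changed. The pooled fit recovered 24% of shifts of 0.5 log2 units, 82% of those of 1, 98% of 2 and 100% of 3. Of 160 calls, 8 were false. The simulated noise was independent between probe sets and held no split by Xist or airway signal. These shares may therefore not hold for the real hearts. Alternatives were other scalings, filters, probe set choices, moderation, array weights, a replicate block, a Y-linked covariate, hearts left out singly and the 3 hearts with high Xist left out; leaving out the 3 hearts with high airway signal was chosen after seeing the data.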

Additional observations from a re-analysis of the deposited data

Results flagged for a closer look

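Some genes here were chosen after their values were seen, and each group of 6 holds 2 genotypes, so no rate expected by chance applies. In 112 groups of 6 Col4a3-null hearts (named genes and list means), 18 had 1 heart set far from the other 5. Col4a3-/- heart 3 was that heart for most. It was lowest for B3galt2 (5.10), Mfap4 (6.40), Acta2 (9.50) and Fabp5 (5.45), and highest for Nrf1 (6.76), Gpnmb (7.52), Alb (10.54) and Saa3 (9.10). Its mean over list members was lowest for cardiomyocyte (11.55), fibroblast (8.41) and glycolysis (9.35) genes and highest for liver and kidney genes (7.66). Col4a3-/- heart 2 was lowest for Ackr3 (6.98) and highest for Snord118 (7.51) and Krt8 (6.65). Col4a3-/- heart 1 was lowest for Npnt (5.44), Col4a3-/-OPN-/- heart 2 for Nfxl1 (5.94) and Col4a3-/-OPN-/- heart 3 for Chek2 (5.14).

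The 2 Col4a3-null genotypes differed from each other in limma, at an adjusted p under 0.05, for Ppbp (1.56, Col4a3-/-OPN-/- minus Col4a3-/-), Myh11 (1.28), Snap91 (1.33), Cyp2d22 (1.26), Pm20d1 (0.89) and Cilp (1.21, adjusted p = 0.0482), a cartilage matrix gene outside the naming rule.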

How the results depend on the processing

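No probe set was called in the pooled comparison under other scalings, filters, probe set choices, moderation, a fit with 3 genotype means, or with any 1 heart left out (0 to 0). With array weights 1 was called (Chek2), with the Y-linked covariate 1 and without the 3 hearts with high Xist 1 (Bpifa1 in both), and without the 3 hearts with high airway signal 4 (sex-linked). Probe sets without overlap numbered 397 with no filter, 141 with a filter 1 log2 unit higher, 1780 without the hearts with high Xist and 1174 without those with high airway signal. They numbered 352 to 805 with 1 heart left out, 805 without wild type heart 3 and 383 to 593 without wild type heart 1 or 2, Col4a3-/- heart 1 or 3, or Col4a3-/-OPN-/- heart 1 or 2; fewer hearts or more probe sets raise this count by construction. Probe sets with the same direction in both genotypes numbered 124 with no filter, 27 with the higher filter and 126 with array weights. They numbered 108 with the Y-linked covariate (66 higher) and 197 without the hearts with high Xist (110 higher). In the main fit 16 of the 63 were higher. With 1 heart left out they numbered 40 to 119. The cause of these changes was not tested.

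Directions turned for Scgb1a1 without the hearts with high airway signal (-0.82) and for Ucp1, a brown fat gene, with the Y-linked covariate (0.26) and without the hearts with high Xist (0.37). The smooth muscle median ranged from -0.60 to -0.24 and the atrial median from -0.66 to -0.11.

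For Col4a3-/-OPN-/- minus Col4a3-/-, 6 probe sets were called, and 0 to 22 with 1 heart left out (0 without Col4a3-/-OPN-/- heart 1, 1 without wild type heart 3, 2 without Col4a3-/- heart 3, 11 without Col4a3-/- heart 1 and 22 without Col4a3-/- heart 2). The number was 0 with the replicate block, with the Y-linked covariate and without the hearts with high airway signal, 2 with array weights and with the higher filter, and 23 without the hearts with high Xist. Of the 6, Myh11 was kept in 19 of 23 alternatives, Ppbp in 17 of 22, Cyp2d22 in 13 of 23, Snap91 in 12 of 22, Cilp in 6 of 22 and Pm20d1 in 6 of 23. Each tally counts the fit with 3 genotype means, which for this comparison is the main fit and could not lose a call.

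The replicate numbers did not pair the hearts: deviations of same-numbered hearts correlated at -0.19 to 0.23 over 9 pairs. With the replicate number as a block, 0 were called (smallest adjusted p 0.519, 336 at an unadjusted p under 0.05) and 71 had the same direction in both genotypes.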
